A study of Arabidopsis thaliana with 12 samples.

Results

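The genes described here are the 46 Arabidopsis genes that were named on the array and lay higher in red light than in white light in all 3 same-numbered pairs of samples. They were chosen from the 691 genes measured on features listed with exactly 1 gene. A gene was kept when its red minus white difference, on the scale log2(normalized intensity + 0.054), exceeded 0.5 in each pair. In all, 53 genes met this limit (7.67% of the 691), and 44 genes lay below -0.5 in each pair (6.37%). Over all 3438 rows, unnamed features included, the shares were 7.3% and 6.78%. Of the 53, the choice set aside 4 genes by name, namely PSBW, PSBY, AT1G22700 and AT1G78620. It also set aside 3 pentatricopeptide genes, AT2G46050, AT4G04370 and AT5G40030, recognised from background knowledge because the tables used here give no description for them. The choice also lists GH9B16 and FATB to be left out, but with the normalization used here neither met the limit in all 3 pairs. Their mean differences were 1.70 and 0.84. The differences chose the genes, so their values are given below as a description, without a test.

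Total RNA came from wild-type Arabidopsis thaliana of the Landsberg ecotype. One group had spent 48 hours under red light of 200 µE, the other 48 hours under white light of 20 µE, and each was profiled on 6 single-channel arrays. Colour and intensity of the light changed together and cannot be told apart. The labels give no age, tissue or growth history for the plants, and do not say which arrays share plants or RNA. In both groups arrays 1 and 2 were near-duplicates, as were 3 and 4, and 5 and 6 (rank correlations of 0.91 to 0.989, against 0.641 to 0.821 for other arrays of a group) and were averaged to 3 samples, called pairs 1, 2 and 3. Numbers are shared by the groups, and deviations from the group means correlated at 0.125, 0.466 and 0.376 between same-numbered samples. Deposited array medians ranged from 0.233 to 0.47, and 11.4% to 17% of rows were listed at 0 on an array. On arrays 1 to 4 the medians were 0.417 to 0.47 in red and 0.236 to 0.289 in white light. On arrays 5 and 6 the order was reversed, with 0.237 and 0.233 in red against 0.276 and 0.271 in white light. The normalization removes these differences between arrays, in opposite directions for pairs 1 and 2 and for pair 3. The signal over background is unknown, and precision is limited by the 3 averaged samples per group, whose independence the labels do not give. None of the 16 marker genes of root, senescence, floral organ, epidermis and leaf was on a feature with 1 gene, so tissue makeup could not be read. In such samples, fewer cells of a type and less RNA per cell cannot be told apart.

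Plants read red light with the phytochromes, photoreceptors that red light converts to their active form and that then move to the nucleus and remove a class of repressing transcription factors. Chlorophyll also absorbs red light, so the same light drives photosynthesis, and signals from the chloroplast feed back on nuclear genes. The known carriers of these responses were not measured by name: 0 of 38 light-signalling genes (phytochromes, cryptochromes, their partner transcription factors, clock genes, plastid sigma factors) and 0 of 14 photoprotection genes were on a feature with 1 gene. Of the 46 genes, 8 carry a name in the tables used here, and the other 38 are listed by locus code only, with no role given.

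**Figure D1:**
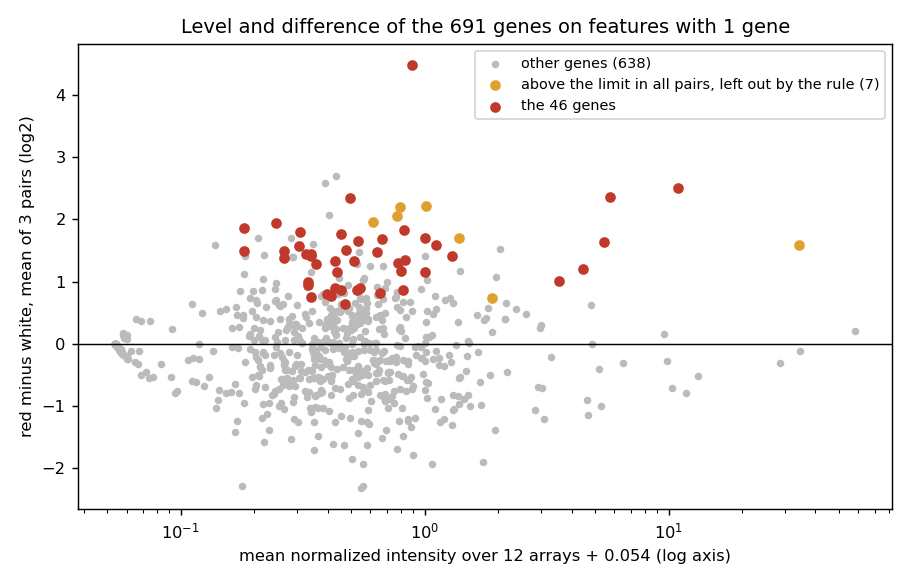
Mean normalized intensity over the 12 arrays (plus 0.054, log axis) against the mean red minus white log2 difference of 3 pairs, 1 point per gene. The 46 genes span mean levels of 0.127 to 10.9 and mean differences of 0.64 to 4.48, and AT4G13680 lies farthest above 0.

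The size of the difference varied widely among the 46. The mean difference of the 3 pairs had a median of 1.40 on the log2 scale and ran from 0.64 for AT4G24910 to 4.48 for AT4G13680, while the median over all 3438 rows was -0.01. It exceeded 2 in 4 genes, lay between 1 and 2 in 30 and was under 1 in 12. The median difference of the 46 was 1.18 in pair 1, 1.27 in pair 2 and 1.11 in pair 3. With the pseudocount multiplied by 4 the mean difference shrank by more than 1.5 times in 17 of the 46 genes, so sizes of dim genes rest on that setting. The mean level over the 12 arrays had a median of 0.432, against 0.371 for the 691 genes, so most of the 46 were neither very bright nor at the floor. In all, 30 of the 46 (65.2%) lay above the median level of all rows, 5 were in the brightest 10% and 2 in the dimmest 25%. This level includes the red values that chose the genes. In white light the median log2 level of the 46 was -1.75, -1.91 and -1.57 in pairs 1 to 3. Over all rows it was -1.44, -1.43 and -1.44. In red light it was -0.57, -0.65 and -0.39 for the 46, against -1.43, -1.41 and -1.43 over all rows.

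Among the genes with a role in the chloroplast, HEMA3 (AT2G31250) encodes an isoform of glutamyl-tRNA reductase, the enzyme that commits glutamate to the synthesis of chlorophyll and heme. Its normalized intensity in red light was 0.795, 1.69 and 0.912 in pairs 1 to 3, and in white light 0.299, 0.572 and 0.375. All 6 red arrays lay above all 6 white arrays, and pair 2 was the brightest in both lights. The differences of 1.32, 1.49 and 1.23 were close to each other (mean 1.35 ± 0.14, SD, n = 3 pairs). CUTA (AT2G33740), which encodes a copper-binding protein of the chloroplast, differed by 1.26, 1.85 and 0.80. Its red values of 0.152, 1.52 and 1.42 and its white values of 0.0292, 0.382 and 0.825 overlapped, and pair 1 was dim in both lights. APS4 (AT5G43780) encodes an ATP sulfurylase, which starts the assimilation of sulfate. It had 0.321, 0.467 and 0.694 in red against 0.122, 0.31 and 0.327 in white light, and its smallest difference, 0.53 in pair 2, was among the 3 closest to the limit.

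Of the other named genes, 3 encode proteins known to act on DNA or chromatin. The gene chr31 (AT1G05490) encodes a chromatin remodeller of the CLASSY group, which acts in RNA-directed DNA methylation. It had 0.394, 1.32 and 0.635 in red and 0.0557, 0.0585 and 0.188 in white light. The pair means did not overlap, but single arrays did: red array 1, at 0.186, lay below white array 6, at 0.235. Its differences of 1.87, 3.62 and 1.54 were the most uneven of the leading 12 genes (SD 1.12, n = 3 pairs).

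OSB1 (AT1G47720) encodes an organellar protein that binds single-stranded DNA and acts in the upkeep of the mitochondrial genome. Its red values of 0.295, 0.331 and 0.36 varied little between pairs, and its white values were 0.0986, 0.067 and 0.12. All 6 red arrays lay above all 6 white arrays, with differences of 1.21, 1.67 and 1.27. AT1G78790, listed also as MHF2, encodes a histone-fold protein that works with the FANCM helicase in DNA repair and in limiting meiotic crossovers. It had 0.739, 0.566 and 0.563 in red against 0.352, 0.371 and 0.245 in white light, again without overlap between arrays, and a mean difference of 0.86 ± 0.27 (SD, n = 3 pairs). The other 2 genes with a name overlapped between single arrays. AILP1 (AT5G19140), an aluminium-induced-like protein gene, differed by 2.57, 1.51 and 0.87, with 1.14, 0.454 and 0.646 in red and 0.148, 0.125 and 0.344 in white light. AGL26 (AT5G26880), listed as AGAMOUS-like 26, differed by 0.61, 1.20 and 0.62, and its red arrays 1 and 2 were unlike each other, at 0.535 and 1.53.

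**Figure D2:**
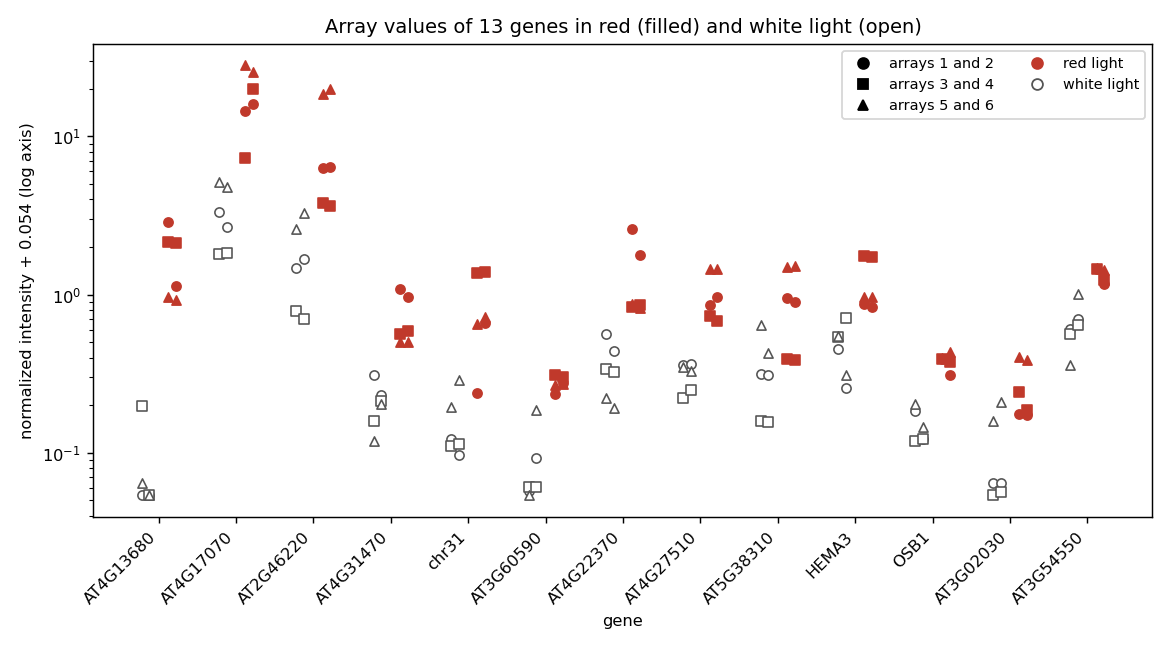
Normalized intensity plus 0.054 (log axis) on every array for the 12 genes with the largest smallest-pair difference and AT3G54550, red light filled and white light open, with the symbol marking the near-duplicate arrays. AT4G17070 and AT2G46220 are the brightest, and AT4G13680 has 4 white arrays at 0.

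Of the genes known by locus code only, AT4G13680 showed the widest gap between the lights. It had 1.95, 2.08 and 0.891 in red light, and in white light 4 of 6 arrays were listed at 0, with white array 3 at 0.144 and white array 5 at 0.0106. No red array fell under 0.87, so the groups did not overlap. The red values themselves were uneven, as near-duplicate arrays 1 and 2 gave 2.83 and 1.08. With these zeros, its log2 difference followed the pseudocount, from 2.85 with the pseudocount multiplied by 4 to 6.06 with it divided by 4.

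The brightest genes of the set were AT4G17070 and AT2G46220. AT4G17070 had 15.2, 13.6 and 26.8 in red against 2.94, 1.77 and 4.91 in white light. AT2G46220 had 6.3, 3.65 and 19.1 in red against 1.51, 0.692 and 2.89 in white light. In both, pair 3 was highest and pair 2 lowest under either light. The differences were 2.35, 2.73 and 2.43 for AT4G17070, and 2.02, 2.32 and 2.71 for AT2G46220. For AT4G17070 the near-duplicate red arrays 3 and 4 disagreed, at 7.29 and 19.8, so the place of red pair 2 and its difference rest on their mean. At these levels the pseudocount matters little, and over the 20 alternative settings the mean differences stayed between 2.26 and 2.99 and between 1.94 and 2.74. A second feature that AT2G46220 shares with 2 other genes differed by 2.21, -1.23 and 0.57.

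AT4G19900, AT4G29890 and AT4G32060 were the other 3 genes in the brightest 10%. AT4G32060 had 5.78, 5.59 and 6.89 in red and 3.64, 2.52 and 1.91 in white light, without overlap between arrays. AT4G29890 had 3.68, 7.29 and 3.18 in red and 1.71, 3.16 and 1.89 in white light, where the highest white pair stopped just short of the lowest red pair. Its single arrays overlapped, with white array 3 at 3.194 above red array 5 at 3.176. AT4G19900 had 10.3, 10.2 and 3.48 in red and 5.38, 1.5 and 1.39 in white light, so red pair 3 lay below white pair 1 and the groups overlapped.

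AT3G54550 combined a moderate difference with steady pair means, though not with steady single arrays. It had 1.26, 1.28 and 1.41 in red light and 0.598, 0.547 and 0.627 in white light, with differences of 1.15 and 1.28 in pairs 2 and 3 and a slightly smaller one in pair 1 (mean 1.14 ± 0.14, SD, n = 3 pairs). White arrays 5 and 6, near-duplicates by rank correlation over all rows, gave 0.305 and 0.949 for this gene. The mean difference was 0.89 without white array 5. These 2 arrays also disagreed for some other members, such as HEMA3 (0.491 and 0.258), CUTA (1.07 and 0.578) and AT4G08280 (0.313 and 0.112). For others they were close, such as AT3G52070 (1.57 and 1.56).

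The remaining genes among the leading 12 were AT4G31470, AT3G60590, AT4G22370, AT4G27510, AT5G38310 and AT3G02030. AT4G31470 had 0.976, 0.521 and 0.449 in red and 0.217, 0.131 and 0.107 in white light, with both lights falling in the same order of pairs. AT4G22370 had 2.13, 0.796 and 0.793 in red and 0.449, 0.278 and 0.154 in white light. AT4G27510 had 0.863, 0.649 and 1.4 in red and 0.308, 0.18 and 0.284 in white light. In these 3 genes all red arrays lay above all white arrays.

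AT5G38310 had 0.873, 0.334 and 1.45 in red and 0.258, 0.103 and 0.479 in white light. Its groups overlapped although its differences of 1.57, 1.31 and 1.52 were nearly equal, with pair 2 low and pair 3 high in both lights. AT3G60590 and AT3G02030 were dim. AT3G60590 had 0.202, 0.251 and 0.218 in red and 0.0208, 0.00681 and 0.066 in white light, with 1 white array at 0. AT3G02030 had 0.12, 0.16 and 0.34 in red and 0.0105, 0.00141 and 0.129 in white light, also with 1 white array at 0. For these 2 the mean difference depended on the pseudocount, at 0.85 and 0.68 with it multiplied by 4 against 2.98 and 2.45 with it divided by 4.

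**Figure D3:**
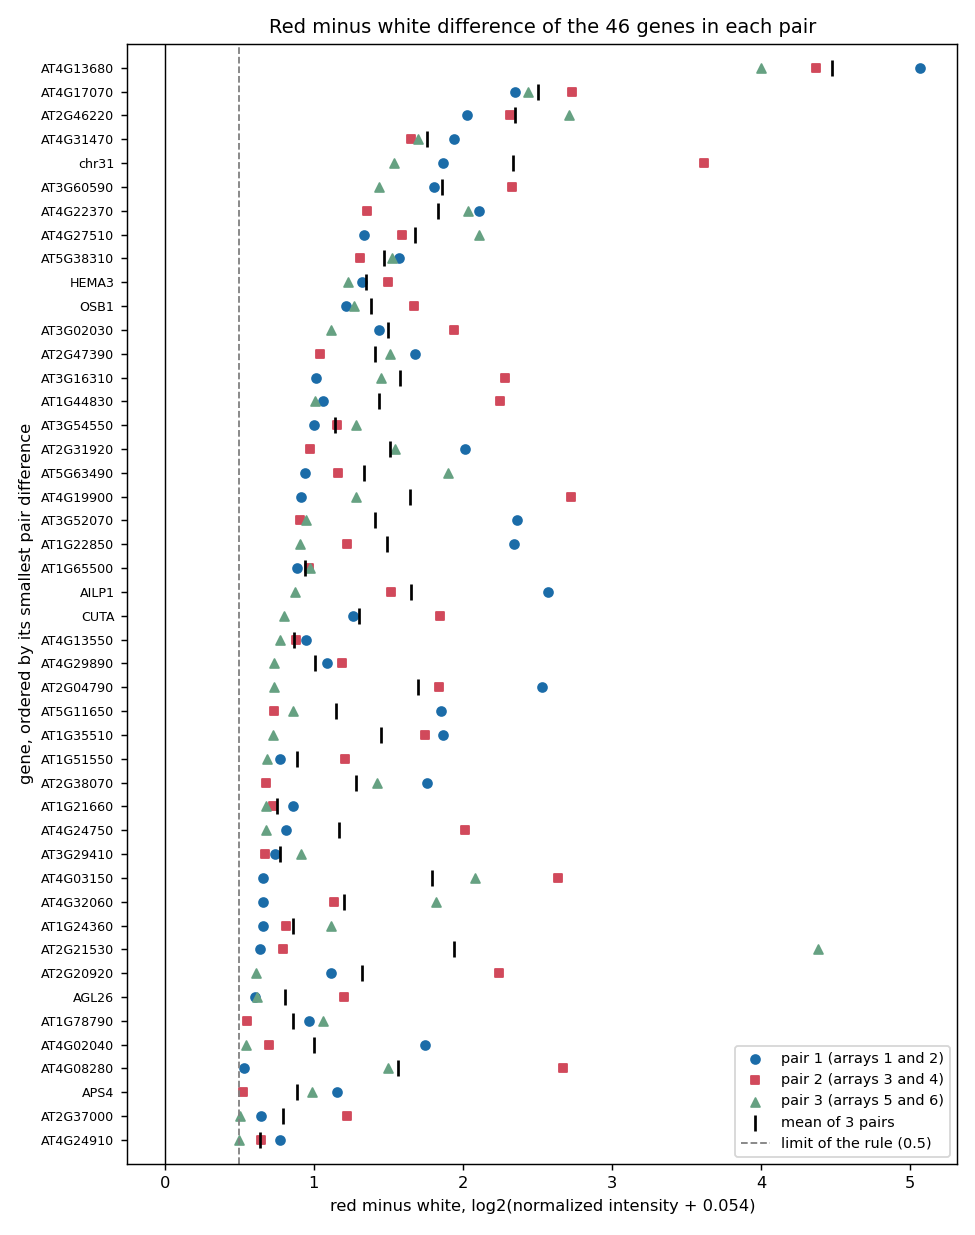
Red minus white log2 difference of each of the 46 genes in pair 1 (circles), pair 2 (squares) and pair 3 (triangles), with the mean as a bar and the limit of 0.5 as a dashed line. AT1G65500 has nearly equal differences (0.88, 0.97 and 0.98), and AT2G21530 spreads from 0.64 to 4.38.

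The 46 genes did not share one pattern over the pairs. The difference was largest in pair 1 for 18 genes, in pair 2 for 18 and in pair 3 for 10. In 10 genes the SD over pairs was under 0.2, and in 22 it exceeded 0.5. The steadiest were AT1G65500 (0.88, 0.97 and 0.98), AT4G13550 (0.95, 0.88 and 0.77) and AT1G21660 (0.86, 0.73 and 0.68), all with mean differences under 1.

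The least steady was AT2G21530, which was listed at 0 on all 6 white arrays. It had 0.0384 and 0.0474 in red pairs 1 and 2 and 1.07 in red pair 3, so nearly all of its signal came from red arrays 5 and 6. Without pair 3 its mean difference was 0.82, against 1.94 with it. AT4G03150 showed the reverse layout in white light, with 0.344 in pair 1, 2 arrays at 0 in pair 2 and 0.0299 in pair 3, against 0.575, 0.282 and 0.289 in red light. AT4G08280 was near the floor in pair 1 of both lights (0.0576 in red, 0.0269 in white) and differed by 2.67 and 1.49 in pairs 2 and 3.

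The largest difference of the other genes fell in different pairs. In pair 1, AT3G52070 differed by 2.37, AT1G22850 by 2.34, AT5G11650 by 1.85 and AT4G02040 by 1.75, in each case above its pairs 2 and 3. AT2G04790 (2.53 and 1.84), AT2G31920 (2.01 and 1.54), AT2G38070 (1.76 and 1.42) and AT1G35510 (1.87 and 1.75) were also highest in pair 1, with the second value from their next pair. In pair 2, AT3G16310 differed by 2.28, AT1G44830 by 2.25, AT2G20920 by 2.24 and AT4G24750 by 2.02. AT5G63490 differed most in pair 3, by 1.90. Without pair 2 the mean difference of AT2G20920 was 0.88 against 1.32, that of AT4G24750 was 0.76 against 1.17 and that of AT4G08280 was 0.98 against 1.57. Without pair 1 that of AT4G02040 was 0.66 against 0.997. AT3G29410 depended on single arrays, as its near-duplicates 3 and 4 disagreed in both lights, and its mean difference of 0.77 was 0.45 without red array 4 and 0.43 without white array 3. Mean differences of the genes not given so far were 1.41 for AT2G47390, 0.89 for AT1G51550, 0.86 for AT1G24360 and 0.79 for AT2G37000. For AT2G47390 the near-duplicates of pair 1 disagreed, at 0.0008 and 0.223 on white arrays 1 and 2 and 0.215 and 0.521 on red arrays 1 and 2. Its largest difference, 1.68, was in that pair.

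Levels were often high or low in the same pair under both lights. Among the 45 genes without tied pair means, 22 (48.9%) had the same order of the 3 pairs in red and in white light, and 31 (68.9%) had the same brightest pair. Over the 588 genes without ties the shares were 28.7% and 49.3%. The choice asked for a difference of one sign in every pair, which bears on these shares, so nothing is read from them.

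Being higher in red light in every pair did not keep the groups from overlapping. The 3 red pair means all lay above the 3 white pair means in 25 of the 46 genes, and overlapped in 21. Over all rows this held for 8.41%, and the reverse order for 9.08%. All 6 red arrays lay above all 6 white arrays in 16 of the 46, against 4.71% of all rows (and 5.06% in the other direction). In a limma fit of pair means across all rows (Benjamini-Hochberg adjusted p under 0.05), 1 of the 46, AT3G54550, passed among 4 rows of 3438 (0.116%). With the pair number as a block, 0 rows passed (0%), and 645 rows (18.8%) had an unadjusted p under 0.05, 41 of the 46 among them. Both fits use the differences that chose the genes, so these counts say nothing further about them.

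Many genes met the limit in only 2 of the 3 pairs. Among the 691, 87 genes exceeded 0.5 in pairs 2 and 3, 79 in pairs 1 and 3, and 105 in pairs 1 and 2, and the same 53 of each also exceeded it in the remaining pair. These 53 were 60.9%, 67.1% and 50.5% of the 3 sets, and 30.2%, 24.6% and 24.9% of the 691 exceeded 0.5 in pairs 1, 2 and 3. In that remaining pair 12 of the 87 (13.8%), 2 of the 79 (2.53%) and 12 of the 105 (11.4%) lay below -0.5. Of the 691, 28.1%, 28.7% and 29.8% lay below -0.5 in pairs 1, 2 and 3. The counts of 53 restate the choice, and all of these values are given as a description, without a test.

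The limit of 0.5 has genes close to it on both sides. Just inside were AT4G24910, AT2G37000 and APS4, with smallest pair differences of 0.5002, 0.503 and 0.526. Just outside were AT5G39410, AT2G25870 and AT3G27550, with 0.489, 0.483 and 0.48. AT2G25870 is measured by 2 features, which were averaged. One of them (0.07, -0.17 and 0.47) was below the limit in all 3 pairs, closely so in pair 3, and the other (1.75, 1.14 and 1.75) above it in all 3. AT4G24910 and AT2G37000 met the rule in 11 of 20 alternative settings each, the fewest of the 46.

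A second reading was available for 7 of the 46 genes on features shared with 2 or 3 other genes, where the source of the signal cannot be told apart. None of these features met the limit in all 3 pairs. The mean difference was 0.51 on the shared feature of AT2G46220, and -0.92, -0.77, -0.16, -0.15, -0.91 and -0.21 on those of AT3G60590, AT1G22850, AILP1, AT1G35510, AT2G38070 and AGL26. Differences of exactly 0 occurred for AT3G60590 in pair 3, AILP1 in pair 1 and AGL26 in pairs 1 and 2. The mean for AGL26 thus came from pair 3 alone (-0.62). Levels of the shared features are not given here, so readings at the floor cannot be set apart. In AT2G38070 the shared feature was lower in red light in all 3 pairs (-0.75, -0.50 and -1.49).

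By position, the 46 genes came from all 5 nuclear chromosomes. Chromosome 4 held 14 of them (30.4%, against 17.4% of the 691 genes), chromosomes 1 and 2 held 10 each (21.7%, against 25.2% and 17.8%), and chromosomes 3 and 5 held 6 each (13%, against 18.8% and 20.7%). Few lay near each other. AT4G13550 and AT4G13680 are separated by 16 protein-coding genes of the RefSeq annotation of TAIR10.1, none of them among the 691. AT4G24750 and AT4G24910 are separated by 14, of which 1 is among the 691 and is not one of the 46.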

How the data were processed

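Single-channel array values of 12 samples were used. The deposited table holds 1 linear intensity per feature and array; background correction and scaling by the authors are not given in the sources used here. Names came from GEO's platform annotation (692 features with 1 gene, 870 with several, 1877 not listed), and 690 of the 692 matched RefSeq's TAIR10.1 table. Intensities were quantile-normalized over the 12 arrays (limma 3.58.1, R 4.3.3) and transformed as log2(intensity + 0.054), percentile 5 of the positive values. Features of a gene were averaged, then near-duplicate arrays, giving 3 samples per group. Intensities quoted per pair are means of 2 normalized arrays. Rows were fitted with lmFit and eBayes (4 residual degrees of freedom). The fit was tested on simulated data. Samples were paired across the lights by their shared replicate numbers, although the labels do not say that same-numbered samples belong together. The correlations of their deviations (all over 0.1) were computed as a check, and were not compared with those of differently numbered samples. P-values measure the spread between these samples, which may be technical. Members and lists were chosen with earlier results of these data known. By rule, every member is named, and pair values are given for the 12 with the largest smallest-pair difference, for AT3G54550 and, added later, for named or contrasting genes. Description classes and promoter motifs could not be read, as the tables used here hold neither. Alternatives changed normalization, pseudocount, the filter on dim features and the arrays used.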

Additional observations from a re-analysis of the deposited data

How the results depend on the processing

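The mean difference of each of the 46 genes stayed positive in the 20 alternatives that changed scaling, pseudocount, filter or arrays. The rule had already asked for a positive difference in every pair of these same arrays. The choice of genes therefore largely fixed this sign, and nothing is read from it. Of 918 mean differences in these alternatives, 71 moved by more than the gene's own SD over pairs. An uneven gene has a wide SD and so seldom counts as moved. For example, chr31 (SD 1.12) did not when it fell from 2.34 to 1.55 with the pseudocount multiplied by 4. All alternatives that tested a gene kept it within the rule for 26 of the 46. The number of genes meeting the rule was 80 on the deposited scale (38 of the 46 among them) and 29 with the pseudocount multiplied by 4 (all of them among the 46), against 46. Without 1 array it was 41 to 49. Without pair 1, 2 or 3, where the rule asks for the other pairs only, it was 83, 71 and 93. The median difference of the 46, 1.40, was 1.61 without normalization, 1.30 after scaling arrays to one median, 0.93 and 1.64 with a pseudocount 4 times as high and 4 times as low, and 1.29 to 1.45 when an array or a pair was left out. The deposited scale moves the median of all rows to 0.20, which leaves 1.42 for the 46. The number of rows past an adjusted p of 0.05 in limma, 4, was 27 without normalization, 1 after scaling to one median, 2 with the pseudocount multiplied by 4, 1 without the dimmest 25% of rows, 105 with near-duplicates as a random block and 564 with 12 arrays as separate samples. With the pair number as a replicate block it was 0, and AT3G54550 no longer passed. It was 0 to 5 when 1 array was left out (0 without white array 1, 2 without white array 5). The causes of these shifts were not tested. Alternatives chosen after seeing the data, keeping the 3 pentatricopeptide genes and not averaging features of a gene, gave 49 and 47 genes. Signal over background is unknown, so the depth behind the dim genes cannot be given.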
